A study of Malus domestica with 4 samples.

Results

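RNA of the cortex, the flesh under the peel, was compared between apples kept for 24 days at 0.4 kPa oxygen (0.4ox) and apples taken before the low oxygen storage (T0). All genes that reached at least 10 estimated counts in T0 or in 0.4ox were included, which were 29985 of the 63514 genes in the deposited tables. The fruit were of the cultivar Granny Smith (Malus domestica), and the slices came from the equator of the fruit. T0 carries the label of a normoxic sample and was taken after a short cold acclimation in air, so it is close to harvest but not at harvest. The 0.4ox fruit stayed at 1 °C in refrigerated chambers with 1 chamber per atmosphere. The low oxygen atmospheres were made up with nitrogen and also held CO2. The time in the cold, the chamber, the CO2 and the oxygen level therefore cannot be told apart in this comparison. A sample kept for 24 days at 0.8 kPa oxygen (0.8ox) is given beside it where it shows how far a value depends on the oxygen level. It is compared with the same T0 sample, so its ratio against T0 is no independent repeat.

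Plant cells that run short of oxygen cannot run the respiratory chain at full rate, and regain the NAD+ that glycolysis needs by fermentation to ethanol or lactate. In Arabidopsis a small core of genes answers to low oxygen in every organ, among them those of pyruvate decarboxylase, alcohol dehydrogenase, sucrose synthase, the LOB domain protein LBD41, the trihelix protein HRA1 and the HRE ethylene response factors. The group VII ethylene response factors, which include the RAP2.12 and HRE types, switch this core on and are themselves degraded when oxygen is present.

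Each condition had 3 libraries, which the authors merged into 1 estimated count per gene with a modelled variance. The counts summed to 9553180 in T0 and 5445598 in 0.4ox, and levels are given here as CPM, the count scaled to a total of 1000000, ± the modelled SD of the count. This SD was modelled over genes of similar count, so it is not the measured spread of the gene itself, and the adjusted p-values below rest on it. At 10 or more counts were 29261 genes in T0 and 25342 genes in 0.4ox. Lists of green tissue and epidermis were summed as a check on other tissues in the slices, but all 20 and all 8 of their genes come from a table the study drew up on the contrast of 0.8ox with 0.4ox, so they are weak markers. The photosynthesis list holds only genes higher in 0.8ox than in 0.4ox, a choice that favours a low sum in 0.4ox. This list summed to 836 CPM in T0, 31.4 CPM in 0.4ox and 107 CPM in 0.8ox. The single gene MDP0000840536 gave 544 CPM of the sum in T0. The cuticle list, with 1 of its 8 genes tested, summed to 18.8 CPM in T0, 7.20 CPM in 0.4ox and 37.5 CPM in 0.8ox. In bulk tissue, fewer cells of a type and less RNA per cell cannot be told apart.

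Of the 29939 genes that could be tested, 5052 (16.9%) differed between 0.4ox and T0, with 2303 (7.69%) higher and 2749 (9.18%) lower in 0.4ox. A call means a log2 ratio that differs from 0 at a Benjamini-Hochberg adjusted p under 0.001 in a two-sided normal test on the modelled variance. Of the called genes, 1898 were higher and 2325 lower by more than 2-fold. The genes that were higher took 6.50% of all counts in T0 and 22.8% in 0.4ox, and the genes that were lower took 25.6% and 8.95%. Of the 100 leading genes of each condition, 57 were shared, and 38 of the leading genes of 0.4ox were called higher. The median log2 ratio of all tested genes was -0.08. Called genes made up 2.77% of the genes with under 50 counts and 36.3% of those with 500 or more, where log2 ratios had a median SE of 0.54 and 0.20, respectively. Counts of called genes in the lists below are to be read beside these shares and those over all genes tested. None of the 632 genes just above the minimum, at 10 to 11 counts, was called, and 600 genes lay just under it, at 9 to 10 counts.

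**Figure D1:**
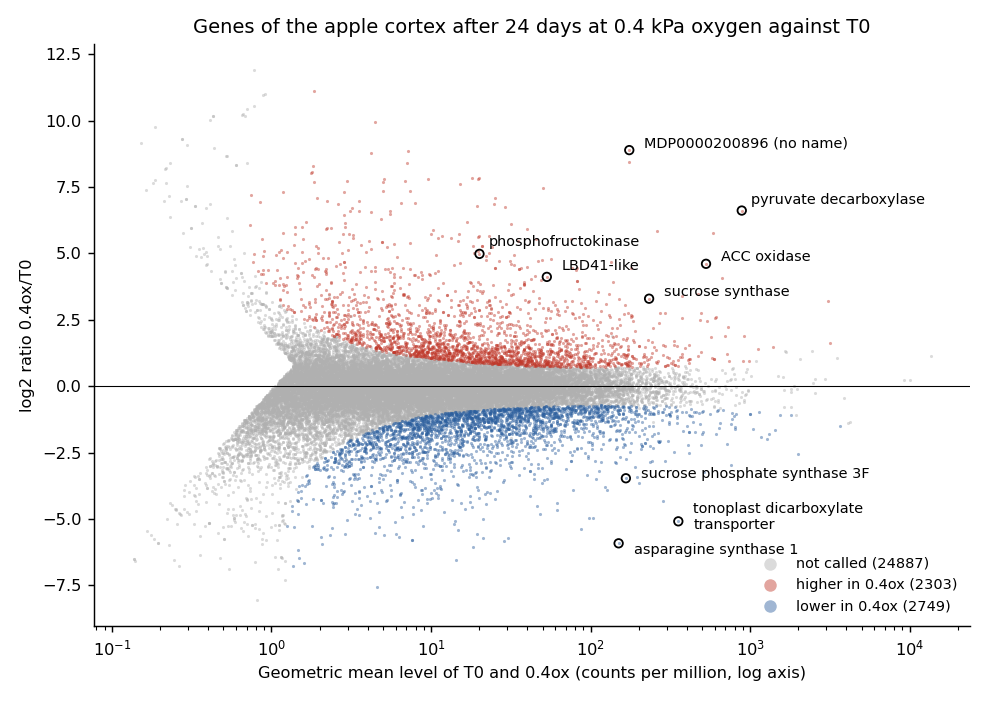
Log2 ratio 0.4ox/T0 (y axis) of every tested gene against the geometric mean of its levels in T0 and 0.4ox (x axis, CPM, log scale), with called genes in red (2303 higher) and blue (2749 lower) and circles around genes described in the text. Pyruvate decarboxylase and ACC oxidase stand apart at the upper right, and the tonoplast dicarboxylate transporter and asparagine synthase 1 at the lower right.

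The genes that the study picked by function for RT-qPCR are described first, since no contrast of these libraries is named as the basis of their choice. Their primer pairs give the sequences that the study amplified under each name. The lactate dehydrogenase loci share a pair, and so do the beta-amylase loci, so a pair does not always fix a single locus. The pairs of the 6 genes with the largest rises are shown. All pairs are designed oligonucleotides of the study, in lower case, 5′ to 3′, forward before reverse.
MDP0000800945 (pyruvate decarboxylase) forward: caaggcagtaaagccggtta
MDP0000800945 reverse: aaatcggtccagcaaacaag
MDP0000131308 (phosphofructokinase) forward: agtcgtggagtggtggaatc
MDP0000131308 reverse: tagagggtgagggcttcaga
MDP0000195885 (ACC oxidase) forward: cagtcggatgggaccagaa
MDP0000195885 reverse: gcttggaatttcaggccaga
MDP0000288465 (HRE-like ERF) forward: ctcccttcgccaagttcg
MDP0000288465 reverse: ttgagtcggtgcgattaacc
MDP0000848905 (HRE-like ERF) forward: cggtggtgctataatctccg
MDP0000848905 reverse: ggaattgagtcggtgtgagtagtt
MDP0000250070 (sucrose synthase) forward: tccgtgttcactgctacgag
MDP0000250070 reverse: gcctcaagaaggtccaacag

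The fermentation genes rose, and the gene of pyruvate decarboxylase (MDP0000800945), which commits pyruvate to ethanol, rose most. Its level was 89.5 ± 6.96 CPM in T0, 8762 ± 2540 CPM in 0.4ox and 5697 ± 981 CPM in 0.8ox. It was 97.9-fold higher in 0.4ox than in T0 (log2 ratio 6.61, SE 0.43, Benjamini-Hochberg adjusted p = 3.7e-50 by the normal test). In T0 it ranked 2205 among all genes by count, and in 0.4ox it ranked 5 and held 0.876% of all counts. The levels in 0.4ox and 0.8ox did not differ past the threshold (log2 ratio 0.8ox/0.4ox -0.62, SE 0.49).

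Both lactate dehydrogenase genes, whose enzyme turns pyruvate into lactate, rose as well. MDP0000568449 went from 9.76 ± 1.18 to 56.2 ± 6.26 CPM and MDP0000143956 from 5.54 ± 0.81 to 27.5 ± 3.36 CPM, with log2 ratios of 2.53 (SE 0.24) and 2.31 (SE 0.27). The alcohol dehydrogenase locus of the primer table (MDP0000594290), for the last step to ethanol, moved much less, from 114 ± 8.77 to 250 ± 27.9 CPM (log2 ratio 1.13, SE 0.20). Its reads may not be assignable with confidence. The whole-read count, taken here as reads that map to it alone, came to 0.222% of its estimated count in 0.8ox. Alanine aminotransferase (MDP0000319263), which moves an amino group onto pyruvate, rose by 1.13 (SE 0.22), from 16.4 to 35.8 CPM. With these 5 genes higher, the fermentation list held 5 called genes of 8 tested, none of them lower, and a median log2 ratio of 1.13. Over all genes tested 7.69% were called higher. The 3 genes not called were copies of aldehyde dehydrogenase 7B4, at -0.56 to -0.60.

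Genes of sugar supply moved in opposite directions. Sucrose synthase (MDP0000250070), which splits sucrose and saves ATP compared with invertase, rose from 74.3 ± 5.84 CPM in T0 to 729 ± 92.8 CPM in 0.4ox and stood at 758 ± 70.3 CPM in 0.8ox. That is 9.81-fold (log2 ratio 3.29, SE 0.22, adjusted p = 4.9e-50 by the normal test with Benjamini-Hochberg adjustment). A gene listed as phosphofructokinase (MDP0000131308), the enzyme that commits sugar to glycolysis, rose 31.6-fold, from 3.58 ± 0.62 to 113 ± 12.2 CPM (log2 ratio 4.98, SE 0.29). The name of this gene is uncertain, because the study's text and its primer table give different enzymes for the same identifier. Both beta-amylase genes, which release maltose from starch, rose by 2.78 (MDP0000764433, SE 0.44) and 2.80 (MDP0000142134, SE 0.34) on the log2 scale. The first of them had no reads of its own (0%).

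On the other side, sucrose phosphate synthase 3F (MDP0000783676), of the route that makes sucrose, dropped from 553 ± 48.4 to 50.0 ± 5.66 CPM, with 258 ± 21.1 CPM in 0.8ox. The log2 ratio 0.4ox/T0 was -3.47 (SE 0.21). An alpha-amylase gene (MDP0000212372) was also lower, at 52.7 against 7.68 CPM (log2 ratio -2.78, SE 0.26), as was 1 gene named trehalose-phosphatase/synthase (MDP0000799020, log2 ratio -0.76, SE 0.19). Within the list of sucrose, starch and glycolysis genes 4 of 11 tested were higher and 3 lower, with a median log2 ratio of 0.08. The 4 that were higher are primer table genes, and the 3 that were lower come from genes the study selected on the contrast of 0.8ox with 0.4ox, so the split by step is not independent of how the list was made.

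**Figure D2:**
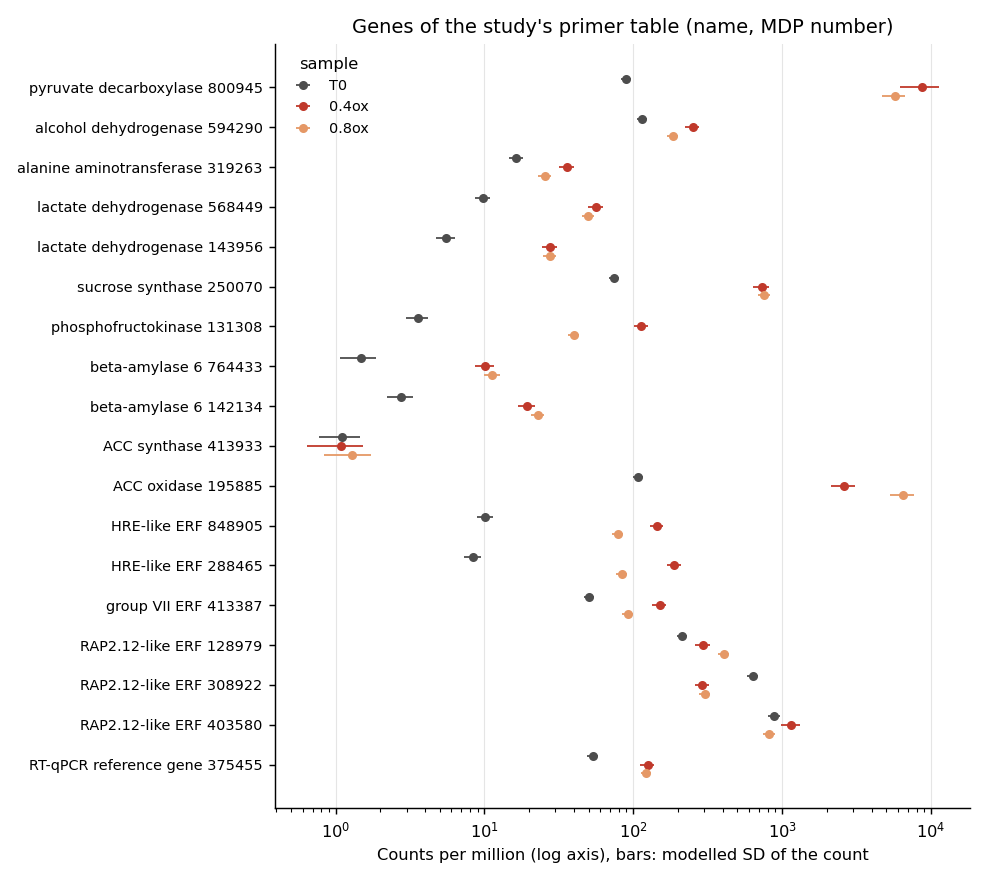
Levels in CPM (x axis, log scale) of the 18 primer table genes in T0 (dark grey), 0.4ox (red) and 0.8ox (orange), with bars of 1 modelled SD. Pyruvate decarboxylase, ACC oxidase, sucrose synthase, phosphofructokinase and the HRE-like ERFs lie far right of T0 in both low oxygen samples, while ACC synthase lies near 1 CPM in all 3 and 1 RAP2.12-like ERF lies left of T0.

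Ethylene, the ripening hormone of apple, is made from ACC, which ACC synthase forms and ACC oxidase converts with the use of oxygen. The ACC oxidase gene (MDP0000195885) rose from 107 ± 8.31 CPM in T0 to 2610 ± 475 CPM in 0.4ox and was at 6460 ± 1177 CPM in 0.8ox. The rise in 0.4ox was 24.4-fold (log2 ratio 4.61, SE 0.29, adjusted p = 5.3e-56 by the normal test with Benjamini-Hochberg adjustment). The difference between both oxygen levels (log2 ratio 0.8ox/0.4ox 1.31, SE 0.37) did not pass the threshold, with an adjusted p of 0.0077 in the normal test with Benjamini-Hochberg adjustment. ACC synthase (MDP0000413933) had 10.6 counts in T0 and 5.93 counts in 0.4ox, and its log2 ratio of -0.03 has an SE of 0.74, so a 2-fold change would not have been detectable at this depth. In the ethylene list ACC oxidase was the 1 gene called among 6 tested, which is near the 16.9% called over all genes.

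The 6 group VII ethylene response factors of the primer table did not move as a block. This group holds the oxygen-labile regulators of the hypoxic core. The study reports further members in the apple genome, which are not described here. The HRE-like gene MDP0000288465 was at 8.38 ± 1.06 CPM in T0, 189 ± 20.5 CPM in 0.4ox and 83.8 ± 7.0 CPM in 0.8ox (log2 ratio 0.4ox/T0 4.49, SE 0.24). Its counterpart MDP0000848905 was at 10.1 ± 1.21, 144 ± 15.4 and 78.4 ± 6.58 CPM in the same order (log2 ratio 3.83, SE 0.23), but held no reads of its own (0%). Both stood higher at 0.4 than at 0.8 kPa, by a log2 ratio 0.8ox/0.4ox of -1.17 for the first (SE 0.20) and -0.88 for the second (SE 0.20), and both differences passed the threshold, as did 3.96% of all genes tested between these 2 samples.

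The other group VII genes of the primer table were already well expressed in T0. MDP0000413387 rose from 50.7 to 150 CPM (log2 ratio 1.57, SE 0.20). Of the RAP2.12-like genes, MDP0000308922 fell from 636 ± 56.8 to 291 ± 32.3 CPM (log2 ratio -1.13, SE 0.21), and was at 303 ± 25 CPM in 0.8ox. MDP0000128979 and MDP0000403580 had log2 ratios of 0.47 (SE 0.20) and 0.37 (SE 0.25) and were not called. In all, 3 of the 6 were higher and 1 lower, and their summed level was 1804 CPM in T0 and 2215 CPM in 0.4ox, a far smaller change than in the HRE-like pair.

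The gene used as reference in the study's RT-qPCR (MDP0000375455) was itself called higher, at 53.5 ± 4.37 CPM in T0, 125 ± 13.3 CPM in 0.4ox and 122 ± 9.97 CPM in 0.8ox. Its log2 ratio 0.4ox/T0 was 1.22 (SE 0.19). It differed little between the 2 low oxygen samples (log2 ratio 0.8ox/0.4ox -0.03, SE 0.19).

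Transcription factors were described from the list that the study drew up on the contrast of 0.8ox with 0.4ox, so their being different in 0.4ox is in part fixed by that choice. Of 63 tested, 33 rose and 7 fell from T0 to 0.4ox, and 23 were not called. The median log2 ratio was 1.13, against -0.08 for all tested genes. The apple genes closest to members of the Arabidopsis hypoxic core were among the highest. The trihelix gene MDP0000429824, matched to AT3G10040 (HRA1, which restrains RAP2.12 in Arabidopsis), had 2.99 counts in T0 and 178 counts in 0.4ox, which is at least 104-fold higher against a floor of 3 counts. The LBD41-like gene MDP0000881409 rose from 12.8 ± 1.42 to 221 ± 24.6 CPM, with 100.5 ± 8.39 CPM in 0.8ox, and was 17.3-fold higher in 0.4ox than in T0. An AT-hook gene (MDP0000933110), of a class that binds AT-rich DNA, rose from 2.22 ± 0.48 to 97.8 ± 10.7 CPM (log2 ratio 5.46, SE 0.35).

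AUX/IAA proteins, the repressors that auxin removes, split into a rising and a falling group. MDP0000270789, named auxin-induced protein 13, went from 1.23 to 143 counts, at least 83.9-fold higher. MDP0000123816, MDP0000253285 and MDP0000223496 had log2 ratios of 5.98 (SE 0.79), 5.68 (SE 0.72) and 4.63 (SE 0.31). The study's list pairs these 3 loci with 1 and the same RefSeq transcript, so they may be copies of a single gene, and only MDP0000223496 had most of its reads to itself. It stood at 3.05 ± 0.57 CPM in T0, 75.2 ± 8.27 CPM in 0.4ox and 9.04 ± 1.2 CPM in 0.8ox. In the other direction, MDP0000284467, which shares its Arabidopsis match (AT2G33310) with the first gene but has few reads of its own (1.08%), and MDP0000250876, named indole-3-acetic acid inducible 11, fell by 1.49 (SE 0.23) and 1.30 (SE 0.20) on the log2 scale. Both were near their T0 level in 0.8ox, at 47.7 and 96.2 CPM against 48.1 and 97.0 CPM in T0.

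Of the listed CheY-like genes, of the response regulator type, 2 of 2 were called higher. MDP0000248863 went from 35.6 ± 3.09 to 533 ± 70.4 CPM (log2 ratio 3.91, SE 0.23). Of 6 homeobox genes 4 were called higher and none lower, led by homeobox protein 16 (MDP0000736852), from 73.2 ± 5.76 to 455 ± 53.6 CPM (log2 ratio 2.64, SE 0.20). All 4 WRKY genes, a family known from defence and stress, were called higher, with log2 ratios of 1.58 to 2.08, but 2 of them lacked own reads. The lowest ratios were those of heat shock transcription factor A2 (MDP0000319456), the amplifier of the heat response, at 21.7 ± 2.09 against 4.46 ± 0.92 CPM (log2 ratio -2.28, SE 0.33), and of G-box binding factor 3 (MDP0000138052), at 32.8 ± 2.89 against 7.96 ± 1.27 CPM (log2 ratio -2.04, SE 0.26). Both copies of HSI2-like 1, a repressor of seed genes, were lower (log2 ratio -1.25 for MDP0000267885), and share 1 RefSeq transcript.

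**Figure D3:**
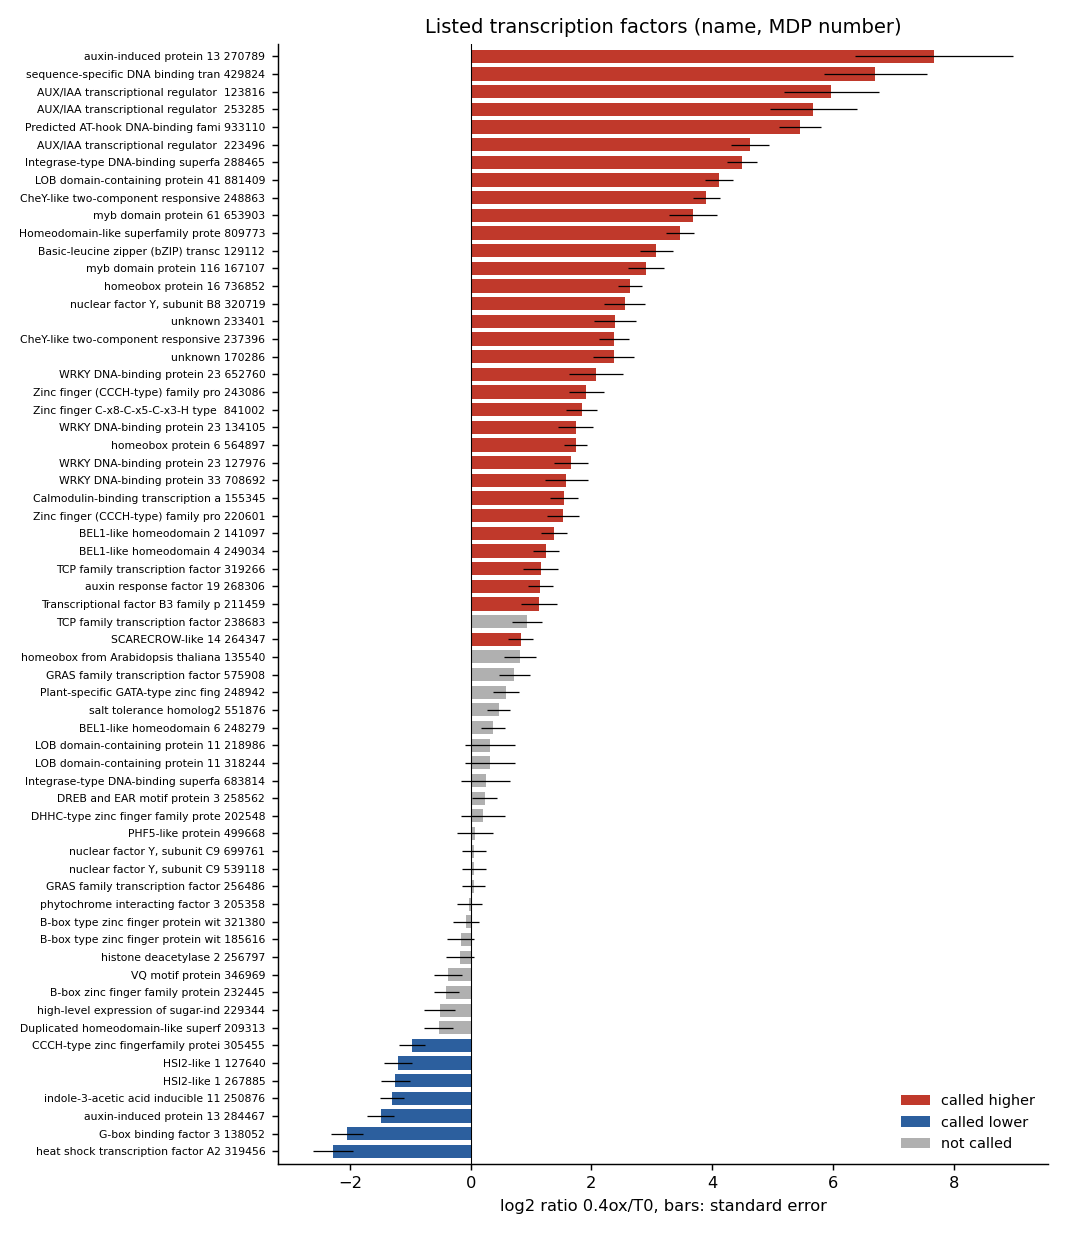
Log2 ratio 0.4ox/T0 (x axis) of the 63 tested transcription factors, 1 bar per gene with its SE, red for the 33 called higher, blue for the 7 called lower and grey for the 23 not called. The AUX/IAA genes appear at both ends, from 7.68 down to -1.49.

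Asparagine synthase 1, which makes the nitrogen-rich storage amino acid asparagine and is known in Arabidopsis as a gene of darkness and low sugar, was lower at 3 of 3 loci tested. The main locus, MDP0000096208, had 11120 counts in T0 and 105 counts in 0.4ox, or 1164 ± 121.3 against 19.3 ± 2.53 CPM, with 57.3 ± 5.06 CPM in 0.8ox. It was 60.4-fold lower in 0.4ox (log2 ratio -5.92, SE 0.24, adjusted p = 2.3e-128 by the normal test with Benjamini-Hochberg adjustment). The other loci, MDP0000744728 and MDP0000125407, had no or hardly any reads of their own (0.826% and 0%), so the 3 loci are closer to 1 measurement than to 3.

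The tonoplast dicarboxylate transporter gene MDP0000813710, whose Arabidopsis match moves malate across the vacuole membrane, was the gene ranked 24 by count in T0 and 3417 in 0.4ox. It had 2068 ± 258 CPM in T0, 60.8 ± 6.98 CPM in 0.4ox and 249 ± 20.3 CPM in 0.8ox (log2 ratio 0.4ox/T0 -5.09, SE 0.24). With it, 4 of the 7 tested copies were called lower, with MDP0000255230 at -2.37 (SE 0.30), and no copy had a positive ratio. Own reads were lacking at 2 of these 4 called copies. Both plastid carriers named dicarboxylate transport 2.1, which exchange malate for glutamate in nitrogen assimilation, were lower by a similar size, at -2.51 (MDP0000933945, SE 0.24) and -2.34 (MDP0000135041, SE 0.23). None of the 4 sulfate transporter 3;1 genes was called. The transport list thus had 6 lower and 0 higher of 15 tested, with a median log2 ratio of -0.95. Over all genes tested 9.18% were called lower and 7.69% higher.

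Apart from the genes listed for their function, those of the asparagine synthase and transport lists and of all lists that follow were chosen by the study on the contrast of 0.8ox with 0.4ox. Most come from the first part of a gene table that holds genes higher in 0.8ox, a choice that favours low values in 0.4ox. The rest, among them genes of the acyl-transferase, cell wall, phenylpropanoid, mevalonate and 2-oxoglutarate oxygenase lists, are named in its text for a difference in either direction. The counts are therefore given as descriptions.

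HXXXD-type acyl-transferases, the family that includes the enzymes of ester aroma in apple, were lower in 18 and higher in 2 of 24 tested, with a median log2 ratio of -4.18. The copy with the most counts, MDP0000637737, went from 283 ± 23.1 to 13.5 ± 1.89 CPM, and was at 148 ± 12.2 CPM in 0.8ox (log2 ratio 0.4ox/T0 -4.39, SE 0.23). Of the 24, 15 share AT5G17540 as their Arabidopsis match and 17 lacked own reads, so the loci were not measured independently. The lowest log2 ratios of called copies lay close together, at -4.53 (MDP0000311104), -4.43 (MDP0000214714), -4.42 (MDP0000152370) and -4.39 (MDP0000166457). A separate pair matched to AT5G67150 fell by less, with MDP0000568913 at 187 ± 14.4 CPM in T0 and 31 ± 3.86 CPM in 0.4ox (log2 ratio -2.59, SE 0.21). The 2 genes that rose, MDP0000656720 and MDP0000533178, match AT5G01210 and went from 0.843 to 6.89 CPM and from 1.47 to 11.5 CPM.

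The listed photosynthesis genes, all from the table of genes higher in 0.8ox than in 0.4ox, do not stand for the whole pathway. Genes of the photosynthetic light reactions are reported by the study as going the other way between the low oxygen samples. The choice of this list leaves such genes out, and their ratios against T0 are not described here. A chlorophyll a/b binding family gene (MDP0000840536), matched to the early light-induced protein ELIP1 of Arabidopsis (AT3G22840), had 544 ± 47.5 CPM in T0, 17.3 ± 2.39 CPM in 0.4ox and 48.4 ± 4.42 CPM in 0.8ox (log2 ratio 0.4ox/T0 -4.97, SE 0.24). The small chain of Rubisco (MDP0000731480), the carbon-fixing enzyme, went from 87.8 ± 7.28 to 3.73 ± 0.85 CPM, with its copy MDP0000524809 at 81.6 and 3.29 CPM, and the plastid glyceraldehyde 3-phosphate dehydrogenase A subunit (MDP0000362033) from 56.7 ± 4.67 to 5.35 ± 0.99 CPM. Of 14 tested, 4 were called lower and none higher by the normal test, and the exact test of edgeR, which has more power for genes close to 0 counts in 1 condition, called 11 lower. The 4 loci matched to AT1G44575 had 102 to 114 counts in T0 and 0.672 counts in 0.4ox, so they were at least 19.3-fold lower, but share their reads. The part of green tissue in the slices was not tested.

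**Figure D4:**
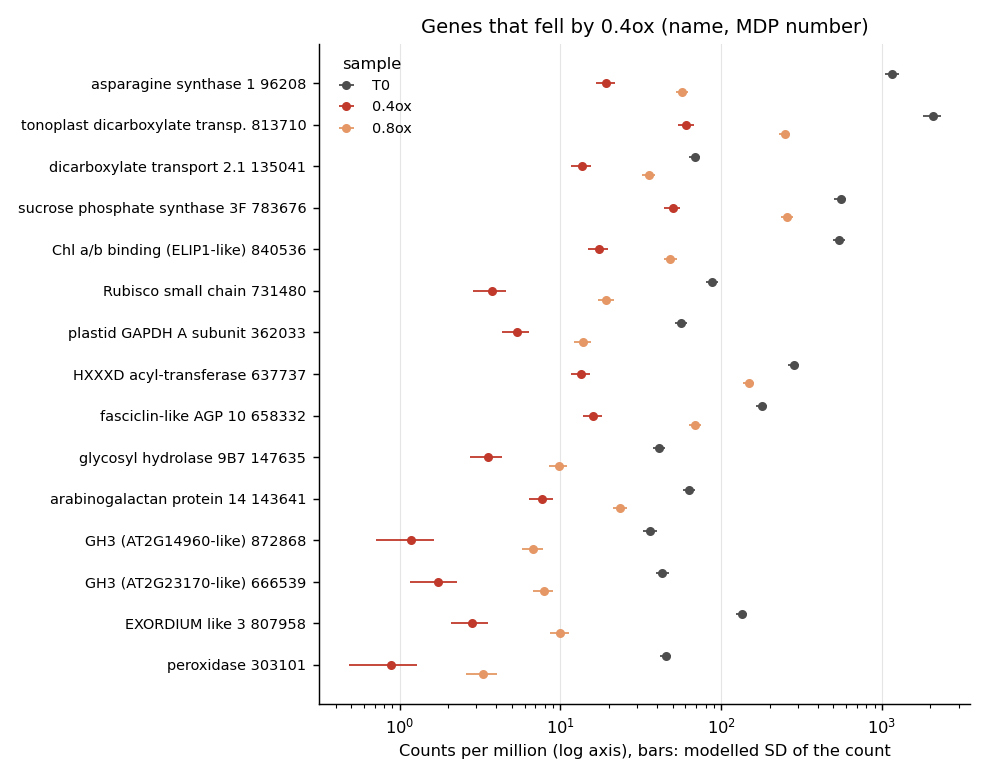
Levels in CPM (x axis, log scale) of 15 genes that were lower in 0.4ox, for T0 (dark grey), 0.4ox (red) and 0.8ox (orange), with bars of 1 modelled SD. In each of these genes the 0.8ox value lies between 0.4ox and T0, for example 57.3 CPM for asparagine synthase 1 between 19.3 and 1164 CPM. The genes were picked for being lower in 0.4ox, mostly from lists chosen on the contrast of 0.8ox with 0.4ox. This order is therefore in part fixed by the choice.

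Cell wall genes went both ways, with 5 higher and 5 lower of 25 tested and a median log2 ratio of 0.05. Over all genes tested 7.69% were called higher and 9.18% lower. Pectin acetylesterases, which remove acetyl groups from pectin, were called higher at 3 of 4 loci, led by MDP0000756536, from 3.04 ± 0.56 to 39.8 ± 4.57 CPM (log2 ratio 3.71, SE 0.31), with 8.68 ± 1.18 CPM in 0.8ox, and MDP0000202156, with a log2 ratio of 3.58 (SE 0.29). Own reads were lacking at 2 of these 4 loci. Against this, the endoglucanase glycosyl hydrolase 9B7 (MDP0000147635) went from 41.1 ± 3.48 to 3.56 ± 0.81 CPM and fasciclin-like arabinogalactan protein 10 (MDP0000658332), a cell surface glycoprotein, from 180 ± 14 to 16 ± 2.19 CPM. Their log2 ratios were -3.53 (SE 0.35) and -3.48 (SE 0.23). A xyloglucan endotransglucosylase gene with many reads (MDP0000310152) stood at 441 ± 37.3 and 430 ± 50.9 CPM and was not called. No expansin, the wall-loosening protein of growth, was called by the normal test, but 3 of 5 were called lower by the exact test of edgeR, at 35.5 to 60.3 counts in T0 and at most 1.195 in 0.4ox. Own reads were lacking at 4 of the 5 expansin loci tested, so they were not measured independently.

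Of the phenylpropanoid genes, 4 of 6 tested were called higher and none lower. Phenylalanine ammonia lyase, the entry enzyme of that pathway, rose at 3 of 4 loci, with log2 ratios of 2.37 at MDP0000139075 (SE 0.31) and 2.27 at MDP0000388769 (SE 0.26). The most expressed, MDP0000787168, was at 137 ± 10.5 CPM in T0, 434 ± 50.5 CPM in 0.4ox and 128 ± 10.6 CPM in 0.8ox (log2 ratio 0.4ox/T0 1.66, SE 0.20). Cinnamoyl CoA reductase (MDP0000322755), the first step towards lignin, had the same order, at 56.8 ± 4.58, 122 ± 13.1 and 57.0 ± 4.96 CPM. These loci were picked by the study for a difference between 0.4ox and 0.8ox, so that part of the order is a description. No gene of the mevalonate and terpenoid list, which makes farnesene and other terpenes, passed the normal test or the exact test of edgeR among 4 tested.

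Of the auxin response list, which shares MDP0000284467 and MDP0000211459 with the transcription factor list, 6 genes were lower and 1 was higher of 10 tested. GH3 genes, whose enzymes attach amino acids to auxin, were called lower at 3 of 5 tested. The other 2 were not called, and 1 of them had a positive log2 ratio (0.91). The largest falls among the GH3 genes were those of MDP0000872868, from 36.2 ± 3.51 to 1.18 ± 0.47 CPM (log2 ratio -4.94, SE 0.59), and MDP0000666539, from 43.2 ± 3.99 to 1.73 ± 0.56 CPM (log2 ratio -4.64, SE 0.49). In 0.8ox MDP0000872868 and MDP0000666539 were at 6.76 and 7.93 CPM. The efflux carrier loci MDP0000181133 and MDP0000225382 carry identical counts and were measured as 1, at a log2 ratio of -2.46 (SE 0.37). The 1 gene called higher, MDP0000211459, a B3 family factor, was lost under the exact test of edgeR.

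**Figure D5:**
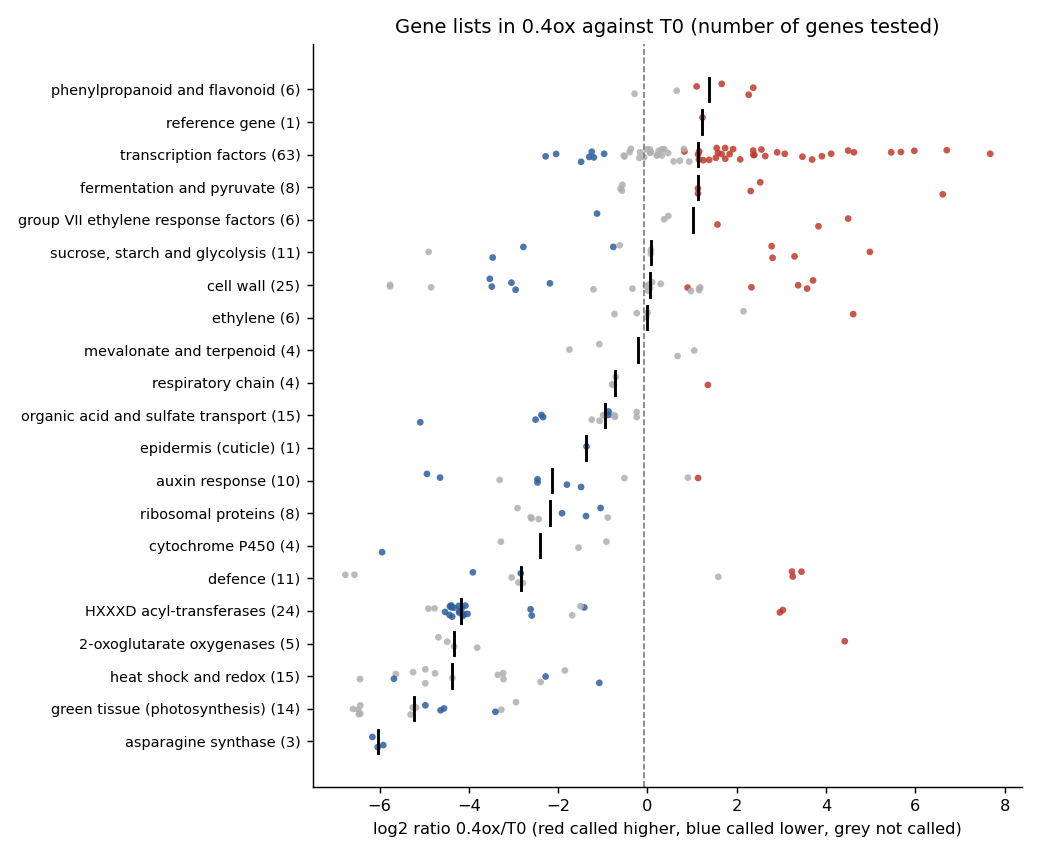
Log2 ratio 0.4ox/T0 (x axis) of each tested gene of the 21 lists, 1 point per gene, red when called higher, blue when called lower and grey when not called, with a black bar at the list's median and a dashed line at the median of all tested genes (-0.08). The medians run from 1.38 for phenylpropanoid genes to -6.04 for asparagine synthase, and grey points at the far left are genes with hardly any counts in 0.4ox.

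In the defence list, 3 of 11 tested were higher and 2 lower, beside 7.69% higher and 9.18% lower over all genes tested. Both listed loci matched to AT1G24020, of the large MLP-like family whose other members are not described here, rose, with MDP0000294379 from 12.6 ± 1.44 to 120 ± 14.6 CPM (log2 ratio 3.25, SE 0.24) and MDP0000288293 from 9.595 ± 1.19 to 105 ± 13.3 CPM (log2 ratio 3.45, SE 0.26), and both were higher still in 0.8ox, at 470 and 459 CPM. A lipoxygenase 2 gene (MDP0000169311), of the route from fatty acids to jasmonate and volatiles, went the other way, from 19.7 to 2.76 CPM (log2 ratio -2.84, SE 0.41). A dirigent-like gene (MDP0000125256) fell from 18.9 to 1.26 CPM.

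Of the respiratory chain list, 1 of 4 tested genes was called, beside 16.9% over all genes tested. This was alternative oxidase 1B (MDP0000940411), which passes electrons to oxygen without ATP gain and rose from 43.8 ± 3.67 to 112 ± 12.4 CPM and was at 283 ± 23.2 CPM in 0.8ox (log2 ratio 0.4ox/T0 1.35, SE 0.20). The 2-oxoglutarate oxygenases, enzymes that need oxygen as a substrate, had 1 of 5 called. This was MDP0000436890, which rose from 4.57 to 55.7 counts and had 1.28 counts in 0.8ox (log2 ratio 0.4ox/T0 4.42, SE 0.72). The study singled this gene out for its difference between 0.4ox and 0.8ox, so that difference is a description. Of the 11 listed genes only these 5 could be tested, and their median log2 ratio was -4.33. However, 4 of the 5 were not called by the normal test, and the exact test of edgeR called 1 lower. The list does not stand for the family. The study reports further such oxygenases as more expressed at the lower of both oxygen levels, and their ratios against T0 are not described here.

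When called genes were ranked by their ratio, leaving out those under 100 counts on the high side or at 3 or fewer on the low side, the highest log2 ratios belonged to MDP0000200896 and MDP0000696624, for which the sources used give no name. MDP0000200896 had 76.7 counts in T0 and 20710 counts in 0.4ox, or 8.02 ± 1.04 against 3803 ± 763 CPM, with 3098 ± 421 CPM in 0.8ox. Its log2 ratio was 8.89 (SE 0.34), above that of pyruvate decarboxylase, and in 0.4ox it ranked 10 among all genes. MDP0000696624 went from 3.17 to 844 counts (log2 ratio 8.87, SE 0.82). The lowest ratios were those of MDP0000188052, also without a name, at 1330 counts in T0 and 8.13 counts in 0.4ox (log2 ratio -6.54, SE 0.52), and of the asparagine synthase copy MDP0000744728.

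The lowest ratios with a name also included EXORDIUM like 3 (MDP0000807958), of a family tied to growth and sugar status, from 135 ± 10.5 to 2.81 ± 0.72 CPM (log2 ratio -5.58, SE 0.39). A peroxidase (MDP0000303101) went from 45.3 ± 3.82 to 0.885 ± 0.40 CPM (log2 ratio -5.68, SE 0.67), and flowering promoting factor 1 (MDP0000328563) from 35.3 ± 3.07 to 0.727 ± 0.37 CPM (log2 ratio -5.60, SE 0.74). A serine-rich protein gene (MDP0000307739) and a gene of the rubber elongation factor family (MDP0000574987) were 32.0-fold and 31.5-fold lower. Of the 631 tested genes with a name, 193 were called lower and 68 higher. Over all tested genes 2749 were called lower and 2303 higher, so a ranking of named genes leans towards those that fell.

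Some genes were near silent on 1 side. At 3 or fewer counts in T0 and 50 or more in 0.4ox were 47 genes, with a median bound of at least 71.1-fold higher. The highest bound, at least 444-fold higher, was that of MDP0000295655, without a name, at 1.35 counts in T0, 760 counts in 0.4ox and 715 counts in 0.8ox. In reverse, 75 genes had 3 or fewer counts in 0.4ox and 50 or more in T0, with a median bound of at least 12.9-fold lower. These cutoffs are counts that were not scaled to the totals, which were 9553180 in T0 and 5445598 in 0.4ox. The same count is thus a lower CPM in T0 than in 0.4ox, so genes enter the falling side more easily and with smaller bounds. The gene numbers and median bounds of both directions are therefore in part set by depth. A name was available for 34 of these 75 genes but for only 2 of the 47, so named examples come mostly from the falling side. A cystatin family gene (MDP0000213404), of the inhibitors of cysteine proteases, had 604 counts in T0 and 1.80 counts in 0.4ox, at least 115-fold lower. A cytochrome P450 of family 78 (MDP0000140803), a family known for the control of organ size, had 156 and 1.45 counts, at least 29.7-fold lower.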

How the data were processed

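RNA was sequenced from apple cortex, with 3 libraries per condition. Per the labels and the study's methods, the authors aligned reads with TopHat2 and Bowtie2 to apple genome version 1.0, removed reads with several mapping places and counted with Cuffdiff; tool versions are not given in the sources used here. The authors deposited 1 estimated count per gene and condition, with the libraries merged, beside the variance the authors' Cuffdiff modelled for them in squared counts. The deposited columns of T0, 0.4ox and 0.8ox were not scaled between conditions, and the totals were 9553180, 5445598 and 6471124. The column of the shifted sample was not used. Its table was used for its 0.8ox count, which holds whole reads only: a gene whose 0.8ox count there was under 10% of that in the other tables is described as without reads of its own. That run was scaled differently, so the share can exceed 100%. That a low share reflects reads shared with other genes is inferred from the values. The study does not state it, and reports that reads with several mapping places were removed.

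The log2 ratio 0.4ox/T0 was taken after division by the column totals, and its SE from the undivided deposited variances. A two-sided normal test of the ratio divided by its SE was run on genes that reached 10 counts in T0 or 0.4ox and were above 0 in both, with Benjamini-Hochberg adjustment over all genes tested and a threshold of 0.001. The same test was run for 0.8ox against 0.4ox. Folds against 3 or fewer counts were computed against 3 counts and are lower bounds. Estimates from 1 value per condition carry no measured replicate spread, and the p-values measure the modelled spread between fruit libraries. Scripts were tested on simulated data. Python 3.11.15, pandas 2.3.3, R 4.3.3 and edgeR 4.0.16 were used; the exact test of edgeR on rounded counts, with dispersions from the deposited variances, was an alternative, beside other scalings, minimums, variances and thresholds.

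Genes and lists were chosen with earlier results of these data known. Names come from the study's text and tables, which pair 1368 genes with a name, 631 of them tested. Named in the text are all primer table genes, the 4 called genes with the largest change of each list (6 per direction for transcription factors) that reached 100 counts on their high side, the 2 highest and 2 lowest of all genes, and the 10 highest and 10 lowest with a name; others were chosen after their values were seen. Of the 62 transcription factor loci that the study pairs with a RefSeq transcript, 33 matched the RefSeq table (assembly GDT2T_hap1), and 13 loci shared 6 transcripts.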

Additional observations from a re-analysis of the deposited data

Results flagged for a closer look

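The 3 genes below were chosen by function and differed between the low oxygen samples by the test of that difference itself. The gene listed as phosphofructokinase (MDP0000131308) was at 113 CPM in 0.4ox and 39.8 CPM in 0.8ox, which is -1.51 on the log2 scale for 0.8ox/0.4ox (SE 0.20, Benjamini-Hochberg adjusted p = 2.8e-11 by the normal test). The HRE-like ERF MDP0000288465 stood at -1.17 on that scale (SE 0.20, adjusted p = 2.0e-07), and its counterpart MDP0000848905, without reads of its own, at -0.88 (SE 0.20, adjusted p = 0.00025). With 1 value per condition, no sample could be compared with others of its group.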

How the results depend on the processing

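No paired analysis was possible because each condition is deposited as 1 merged value; for the same reason no library could be left out. Without scaling, 11388 genes were called, 801 higher and 10587 lower, since the T0 total is the larger; this moved the median log2 ratio from -0.08 to -0.89, and 5 named genes (among them alcohol dehydrogenase MDP0000594290 and the reference gene MDP0000375455) lost their call. With the variance divided by 3 libraries, 12127 genes were called (5554 higher, 6573 lower), and 187 genes of the lists. At an adjusted p under 0.05, 10107 were called (4641 higher, 5466 lower). Under median centring, TMM factors, totals without the 100 leading genes, no minimum or one of 50 counts, a pseudocount of 1, the spread between libraries only, the exact test of edgeR, over 2-fold, and without genes lacking own reads or with identical counts taken once, the count stayed between 4172 and 5470. Higher genes made up 45.6% of calls, and 52.5% under median centring. No called named gene changed direction under any setting run. Of the named genes that were not called, ACC synthase MDP0000413933 went from -0.03 to 0.05 under median centring, 0.04 under TMM factors, 0.02 without the 100 leading genes and 0.07 with a pseudocount of 1, and without scaling MDP0000128979 went from 0.47 to -0.35 and MDP0000403580 from 0.37 to -0.44. The smallest called log2 ratio was 0.72 in size.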

Other observations

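The following genes were picked after their values were seen, from the 75 genes at 3 or fewer counts in 0.4ox, and stand for no pathway. Nine-cis-epoxycarotenoid dioxygenase 3 (MDP0000228070), of abscisic acid synthesis, had 57.6 counts in T0, 0.705 counts in 0.4ox and 4.85 counts in 0.8ox; it was called by the exact test of edgeR but not by the normal test. Highly ABA-induced PP2C gene 3 (MDP0000628976), a phosphatase of abscisic acid signalling, had 134, 0.862 and 14.2 counts in the same order, at least 25.4-fold lower in 0.4ox than in T0. The nitrate reductase 1 loci MDP0000148564 and MDP0000183286, which reduce nitrate to nitrite, had 62.8 and 61.6 counts in T0 and 1.78 counts each in 0.4ox; with 0% and 5.79% own reads they are about 1 measurement. Senescence-associated gene 29 (MDP0000244504 and MDP0000251438) had 68.1 and 74.1 counts in T0 and 1.09 counts each in 0.4ox, with 0% and 3.77% own reads.

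In the heat shock and redox list, 3 of 15 tested genes were called lower and none higher, beside 9.18% lower over all genes tested. The exact test of edgeR called 12 lower. The list was drawn from genes higher in 0.8ox than in 0.4ox. A thioredoxin family gene (MDP0000247659) had 93.3 counts in T0 and 0.614 counts in 0.4ox, and a heat shock protein gene (MDP0000206386), a chaperone, 40.1 and 4.35 counts. In the ribosomal protein list, 3 of 8 were called lower and none higher, with ribosomal protein 1 (MDP0000156653) at 21.1 against 5.62 CPM (log2 ratio -1.91, SE 0.30) and 2 genes of the ribosomal protein S5 and elongation factor G family at log2 ratios of -1.38 (MDP0000169619, SE 0.34) and -1.05 (MDP0000289712, SE 0.20). The thioredoxin family gene MDP0000321879 fell by 1.08 (SE 0.26) on the log2 scale. Of the cuticle list, lipid transfer protein 3 (MDP0000285074) was the 1 gene tested, and was lower, at 15.4 against 5.97 CPM (log2 ratio -1.37, SE 0.32).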
